A study of Homo sapiens with 21 samples.

Results

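Granins and the enzymes that process prohormones were followed across 21 RNA-seq libraries of human stem cell-derived islets. The set was chosen by name and holds 10 genes of the 62699 used from the count table: the granins CHGA, CHGB, SCG2, SCG3 and VGF, the chaperone gene SCG5, and the enzyme genes PCSK1, PCSK2, CPE and PAM. All 10 were found and all 10 passed the filter on low counts. Endocrine cells store peptide hormones in dense-core granules. Granins are acidic, calcium-binding proteins that aggregate in the trans-Golgi network, help the granules to form and are themselves cut into bioactive peptides. The convertases PC1/3 (PCSK1) and PC2 (PCSK2) cut prohormones at pairs of basic residues, carboxypeptidase E (CPE) removes the basic residues left at the cut end, and peptidylglycine alpha-amidating monooxygenase (PAM) turns a terminal glycine into an amide. The protein 7B2 (SCG5) binds pro-PC2 and is needed for its activation. In islets PC1/3 and PC2 together make insulin from proinsulin, and the choice of convertase sets which peptides arise from proglucagon.

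The cells were islets differentiated from the established human embryonic stem cell line H1, either unedited (WT) or labelled ISL1-/-, PAX6-/- or PDX1-/-, each the loss of a transcription factor of pancreatic endocrine cells. On day 11 all cells were dissociated and given a lentivirus with Y-27632 and protamine sulfate, which carried either ISL1-IRES2-BFP or only the blue fluorescent protein BFP. On day 18 the cells that glowed blue were collected by sorting. The 8 groups are named here by genotype and vector label: WT BFP, WT ISL1 and PDX1-/- ISL1 have 2 libraries each, and ISL1-/- BFP, ISL1-/- ISL1, PAX6-/- BFP, PAX6-/- ISL1 and PDX1-/- BFP have 3 each. The comparisons ask how each lost factor and the added ISL1 change these genes. How many clones stand behind each knockout is not given in the sources used here, and the design text calls the replicates biological without saying what was separate, so p-values measure the spread between these libraries.

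Total counts per library ran from 36807615 to 60199880. ISL1 counts were lower in the ISL1-/- BFP than in the WT BFP libraries (log2 fold change −2.42, SE 0.39, edgeR adjusted p = 0.00126), but they did not separate the vector labels: ISL1 stood at 306 and 519 CPM (counts relative to the scaled size of the library) in WT BFP and at 337 and 361 CPM in WT ISL1, and the vector effect on ISL1 in the knockouts was from 0.13 to 0.56 on the log2 scale, with no adjusted p under 0.05. Directions between vectors therefore rest on the labels alone. PAX6 and PDX1 counts did not pass the test in the lines labelled for their loss, and a transcript count need not fall when a gene is inactivated. The libraries labelled PAX6-/- ISL1 replicate 3 and PDX1-/- ISL1 replicate 4 stood apart, with 3.16% and 3.84% of counts on mitochondrial genes against 1.28% to 1.93% in the other 19. PDX1-/- ISL1 replicate 4 also had 25612 CPM of INS and 106084 CPM of GCG, against 164 and 11660 CPM in replicate 2. Because all libraries share an estimate of the spread, each count below is given with all 21 libraries and again with the other 19. That second fit was added after these libraries had been seen, and it leaves 1 library in PDX1-/- ISL1, which is assumed to vary like the other groups. General endocrine markers were present throughout: all 12 had a mean of at least 1 CPM in each group. Of 6 acinar markers, CELA3A, CTRB1, PNLIP and AMY2A stayed under a mean of 1 CPM in each group, while the list summed to 15.8 to 50.7 CPM in the 6 groups without a library that stood apart, 32.4 to 139.9 CPM in PAX6-/- ISL1 and 119 to 268 CPM in PDX1-/- ISL1. Of 5 pluripotency markers, POU5F1, NANOG and TDGF1 stayed under a mean of 1 CPM in each group, and the list summed to 4.02 to 20.9 CPM.

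Upstream sequences are shown for CHGA, VGF and PCSK1, because these had their highest group means in the same group, PDX1-/- BFP, and hold the same motif. RefSeq promoters on GRCh38.p14 were matched for 8 of the 10 genes, 12 promoters in all, and none was matched for CHGB and SCG2. The cAMP response element TGACGTCA, which reads the same on both strands, was searched in windows from 250 bases before to 50 after each start. It was found 54 bases before the start of CHGA, 79 before that of VGF and 77 before 1 of the 2 starts of PCSK1, and in none of the other 9 promoters of the set. Among these 9 is the promoter of SCG3, which also had its highest group mean in PDX1-/- BFP, as did CHGB and SCG2. Of all 35116 promoters of that length, 649 (1.85%) hold it. Its core TGACG, which the full motif contains on both strands, was also found in promoters of CPE, PAM, SCG3, SCG5 and PCSK2, and in 24.6% of all promoters. A match describes letters and does not show binding. The 250 bases before each start follow, 5′ to 3′ on the gene's strand with the element in capitals: CHGA at chr14:92922900-92923149 (plus strand), VGF at chr7:101165570-101165819 and PCSK1 at chr5:96433249-96433498 (both minus strand). The PCSK1 window lies between exons of the gene as counted here.
CHGA: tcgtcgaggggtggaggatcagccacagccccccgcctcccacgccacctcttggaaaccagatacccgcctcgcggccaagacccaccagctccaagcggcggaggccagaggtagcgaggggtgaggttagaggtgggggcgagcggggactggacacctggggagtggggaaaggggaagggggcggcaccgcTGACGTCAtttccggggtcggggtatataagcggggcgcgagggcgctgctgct
VGF: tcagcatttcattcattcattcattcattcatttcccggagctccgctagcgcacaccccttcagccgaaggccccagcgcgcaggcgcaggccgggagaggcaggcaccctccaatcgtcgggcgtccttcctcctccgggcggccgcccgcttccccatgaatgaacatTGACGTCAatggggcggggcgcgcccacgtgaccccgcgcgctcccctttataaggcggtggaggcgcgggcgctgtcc
PCSK1: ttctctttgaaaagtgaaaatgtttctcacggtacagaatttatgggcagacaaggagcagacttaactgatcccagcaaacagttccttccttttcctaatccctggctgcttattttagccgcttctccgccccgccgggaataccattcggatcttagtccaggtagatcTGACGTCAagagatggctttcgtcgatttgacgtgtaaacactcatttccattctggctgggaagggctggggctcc

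Levels of the 10 genes covered several orders of magnitude. Per length, the median over the 21 libraries was 7586 RPKM (CPM divided by the exon length in kilobases) for CHGA, 307 RPKM for CPE, 209 RPKM for SCG2 and 100.3 RPKM for SCG3. It was 48.0 RPKM for CHGB, 28.3 RPKM for PAM, 27.6 RPKM for PCSK2 and 19.2 RPKM for PCSK1. VGF (1.67 RPKM) and SCG5 (0.972 RPKM) were near the bottom, with 62 to 444 and 56 to 486 counts per library. CHGA alone took from 1.15% (95% Wilson interval 1.147% to 1.153%) to 4.69% (4.685% to 4.696%) of a library's counts, with intervals that cover counting error only. It was the gene with the most counts in 16 of 21 libraries and the second in the 4 WT libraries. SCG5 is reported with a limit: 1129 bases (51.4%) of its exons on chromosome 15 are shared with the readthrough gene ARHGAP11A-SCG5 on the same strand, which had 0 to 4 counts, and how the authors' counting treated shared reads is not given in the sources used here.

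**Figure D1:**
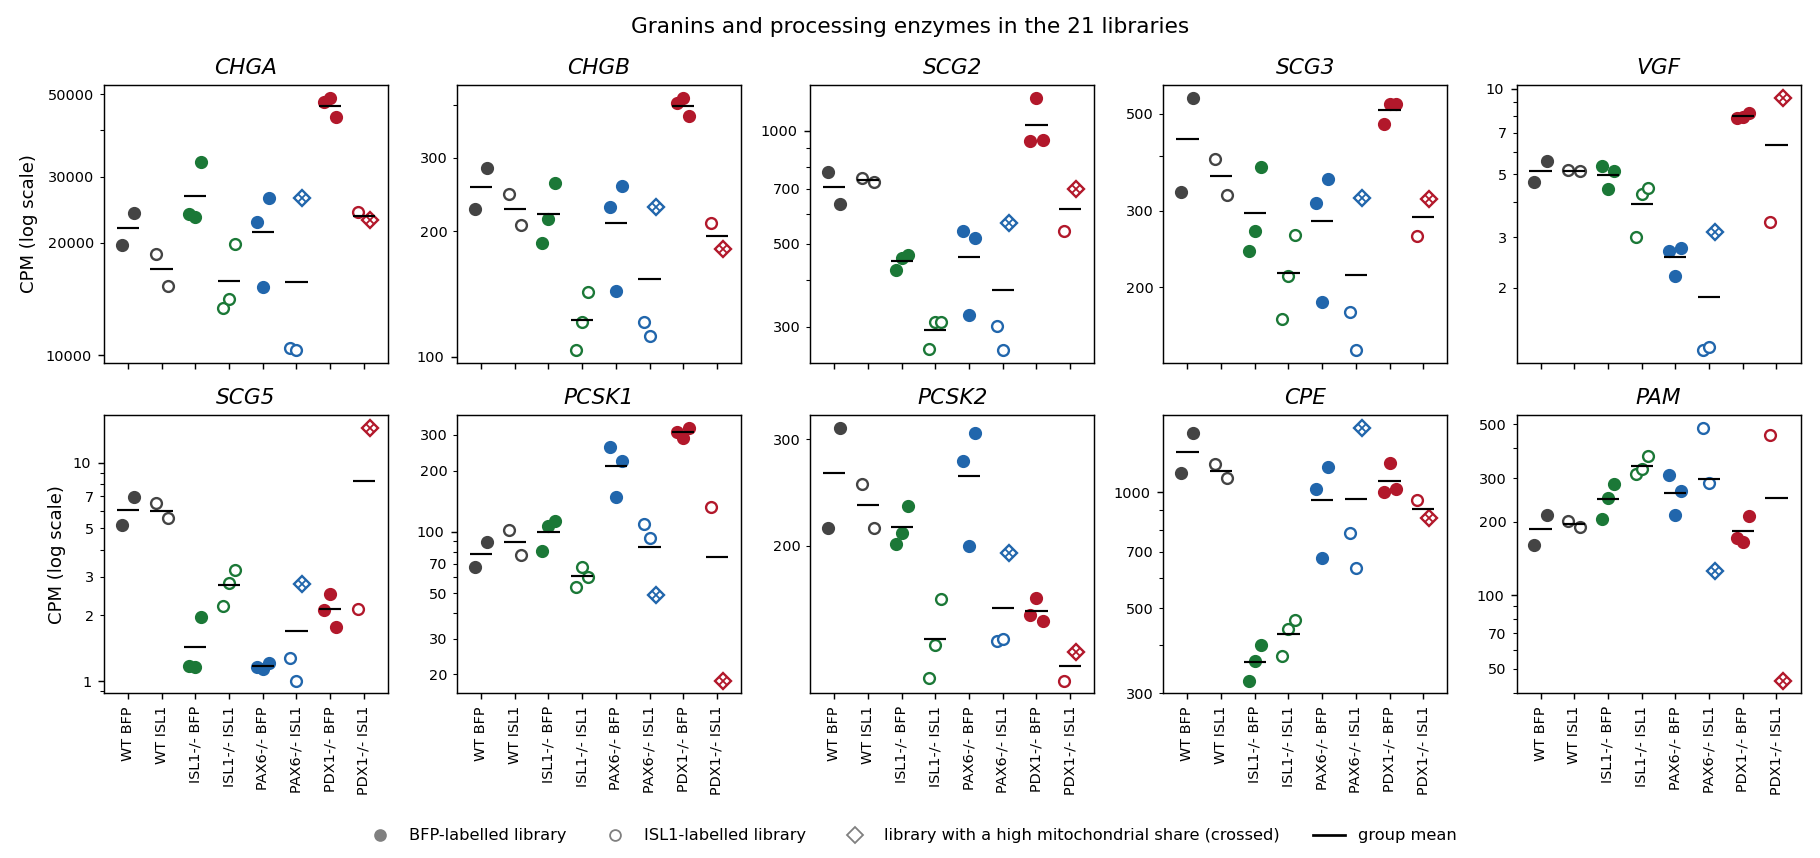
CPM (log axis) of each gene in the 21 libraries, 1 panel per gene and 1 column per group, with a line at the group mean. Filled points are BFP-labelled and open points ISL1-labelled libraries, and crossed diamonds are PAX6-/- ISL1 replicate 3 and PDX1-/- ISL1 replicate 4. CHGA is highest in the 3 PDX1-/- BFP libraries, CPE is lowest in the 6 ISL1-/- libraries, and SCG5 is above 5 CPM in the 4 WT libraries and in PDX1-/- ISL1 replicate 4.

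The means of CHGA, CHGB, SCG2, SCG3 and VGF were each highest in the PDX1-/- BFP group. CHGA, the precursor of peptides such as pancreastatin and vasostatin (chromosome 14, 92923150 to 92935285, plus strand), stood at 47477, 48918 and 43324 CPM there and at 19725 and 24048 CPM in WT BFP. No other library reached the lowest of these 3. The log2 fold change over WT BFP was 1.09 (SE 0.36), with an edgeR adjusted p of 0.0653 over 21 libraries and 0.000901 over 19. CHGB, the other chromogranin (chromosome 20, 5911510 to 5925353), stood at 405, 418 and 377 CPM in PDX1-/- BFP against 226 and 284 CPM in WT BFP. Its log2 fold change was 0.65 (SE 0.30), adjusted p 0.208 over 21 libraries and 0.0245 over 19. SCG2, the precursor of secretoneurin (chromosome 2, 223596940 to 223602361, minus strand), stood at 937, 1225 and 942 CPM against 775 and 636 CPM. Its log2 fold change was 0.55 (SE 0.29), adjusted p 0.291 over 21 libraries and 0.0338 over 19. These 3 granins did not overlap between the 2 groups, which with so few libraries is common: 7 of the 10 genes, and 52.4% of all genes tested, did not overlap there. SCG3, which binds chromogranin A at the granule membrane (chromosome 15, 51681492 to 51721026), overlapped, with 473 to 527 CPM in PDX1-/- BFP and 331 and 544 CPM in WT BFP (log2 fold change 0.22, SE 0.34, adjusted p 0.799).

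Marker lists of several cell types differed between PDX1-/- BFP and WT BFP. Markers counted here as risen or fallen passed an adjusted p under 0.05 with edgeR. Of all genes tested, 9.68% passed in PDX1-/- BFP, 5.59% in ISL1-/- BFP and 5.51% in PAX6-/- BFP over WT BFP. The 12 general endocrine markers summed to 5243 to 5652 CPM in PDX1-/- BFP and to 2327 and 3232 CPM in WT BFP, and 5 of 12 rose. The 7 markers of serotonin-making enterochromaffin cells (TPH1, FEV, SLC18A1, LMX1A, ADRA2A, DDC and MME) summed to 4295 to 4964 CPM against 1014 and 1176 CPM, and 6 of 7 rose. Of 6 markers of neurons, which also express granins, 4 rose, with sums of 428 to 536 CPM against 278 and 391 CPM. Beta cell markers summed to 784 to 867 CPM against 7735 and 8810 CPM, with 5 of 8 lower and 1 higher. Alpha cell markers summed to 16905 to 21718 CPM against 40605 and 55214 CPM, most of it GCG (14965 to 19603 CPM against 36245 and 51317 CPM), with 2 of 8 lower and 1 higher. Delta cell markers summed to 177 to 238 CPM against 708 and 1056 CPM (3 of 7 fell), and 4 of 6 liver markers fell. Their part in the granin levels was not tested. In ISL1-/- BFP over WT BFP, 5 of 8 alpha (725 to 768 CPM in sum), 5 of 7 delta and 3 of 6 liver markers fell, 4 of 8 beta markers fell and 1 rose, and 5 of 7 enterochromaffin markers (2723 to 3541 CPM) and 1 of 12 general endocrine markers rose. Of 6 neuron markers 3 rose and 1 fell there. The delta list includes ISL1, the edited gene, which is 1 of the 5 that fell there and 1 of the 3 that fell in PDX1-/- BFP. In PAX6-/- BFP over WT BFP, 3 of 8 alpha (1195 to 1995 CPM), 3 of 7 delta, 4 of 8 beta and 4 of 6 liver markers fell, and 1 of 7 enterochromaffin (1576 to 2462 CPM), 3 of 12 general endocrine and 3 of 6 neuron markers rose. Progenitor markers summed to 1140 to 1664 CPM in PAX6-/- BFP against 421 and 482 CPM in WT BFP, and 1 of 8 rose. In ISL1-/- BFP they summed to 700 to 748 CPM, and 0 of 8 passed. Of 5 intestine and 5 duct markers tested, 2 and 1 fell in each knockout over WT BFP. In bulk libraries a change in the share of cells of a type and a change in RNA per cell cannot be told apart.

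In PAX6-/- BFP and ISL1-/- BFP none of the 5 granins passed against WT BFP with 21 libraries. CHGA stood at 22762, 15191 and 26317 CPM in PAX6-/- BFP and at 23912, 23413 and 32939 CPM in ISL1-/- BFP, and both groups overlapped WT BFP. SCG2 stood at 540, 323 and 516 CPM in PAX6-/- BFP and at 425, 457 and 466 CPM in ISL1-/- BFP, all below both WT BFP libraries. In all, 5 of the 10 genes did not overlap in PAX6-/- BFP (48.5% of all genes) and 3 in ISL1-/- BFP (51.6%). Its log2 fold changes were −0.62 (SE 0.29, adjusted p 0.247) and −0.65 (SE 0.29, adjusted p 0.217), and with 19 libraries the adjusted p was 0.0129 and 0.0131. Against PDX1-/- BFP, SCG2 fell in both other knockouts, by 1.17 (SE 0.26, adjusted p 0.019) in PAX6-/- and by 1.2 (SE 0.26, adjusted p 0.0121) in ISL1-/- on the log2 scale. The first was kept in 4 of 6 fits that left out 1 library of either group, and lost without PAX6-/- BFP replicate 2 or PDX1-/- BFP replicate 2. The second was kept in 3 of 6, and lost without ISL1-/- BFP replicate 1 or 2 or PDX1-/- BFP replicate 2 (adjusted p up to 0.117 and 0.071).

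VGF, a neurosecretory protein that is a precursor of several peptides (chromosome 7, 101162509 to 101165569, minus strand), had its lowest group means in the PAX6-/- lines. It stood at 2.7, 2.2 and 2.76 CPM in PAX6-/- BFP, against 4.68 and 5.56 CPM in WT BFP, 4.45 to 5.36 CPM in ISL1-/- BFP and 7.91 to 8.24 CPM in PDX1-/- BFP. The PAX6-/- BFP libraries lay below all libraries of the other 3 BFP groups, and those of PDX1-/- BFP above them. VGF fell in PAX6-/- BFP against PDX1-/- BFP (log2 fold change −1.65, SE 0.36, adjusted p 0.0154), a call kept in 1 of 6 fits without 1 library, the one without PDX1-/- BFP replicate 1 (highest adjusted p 0.0891). Against WT BFP the log2 fold change was −1.0 (SE 0.39), with an adjusted p of 0.157 over 21 libraries and 0.000669 over 19. Among the ISL1-labelled libraries, VGF fell in PAX6-/- against WT (1.2, 1.24 and 3.12 CPM against 5.19 and 5.13 CPM, log2 fold change −1.48, SE 0.39, adjusted p 0.0428), and this call was kept in 1 of 5 such fits, the one without PAX6-/- ISL1 replicate 3 (adjusted p 0.00368).

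SCG5 (chromosome 15, 32641676 to 32697098, plus strand) was low in each knockout with the BFP label. It stood at 5.19 and 6.95 CPM in WT BFP, 1.17, 1.16 and 1.98 CPM in ISL1-/- BFP, 1.16, 1.14 and 1.21 CPM in PAX6-/- BFP and 2.12, 2.52 and 1.77 CPM in PDX1-/- BFP. None of the knockout libraries reached the lower WT library. SCG5 fell in ISL1-/- BFP (log2 fold change −2.08, SE 0.54, adjusted p 0.0295) and in PAX6-/- BFP (−2.37, SE 0.54, adjusted p 0.0167). Each was lost in all 5 fits that left out 1 library of its groups, with adjusted p from 0.0516 to 0.198, and both passed over 19 libraries. In PDX1-/- BFP the log2 fold change was −1.50 (SE 0.53, adjusted p 0.0867, and 0.000165 over 19 libraries). These 3 contrasts share the 2 WT BFP libraries, so they are not independent.

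The convertases moved apart in PDX1-/- BFP. PCSK1 (chromosome 5, 96390333 to 96434143, minus strand) stood at 309, 290 and 324 CPM there, against 67.3 and 89.0 CPM in WT BFP, and rose 3.94-fold (log2 fold change 1.98, SE 0.54, adjusted p 0.0279). PCSK2 (chromosome 20, 17226107 to 17484578, plus strand) stood at 153, 164 and 150.2 CPM against 214 and 313 CPM, and fell (log2 fold change −0.76, SE 0.23, adjusted p 0.0424). Neither gene overlapped between the groups, but both calls were lost in all 5 fits that left out 1 library of the groups compared, with adjusted p from 0.0556 to 0.266 for PCSK1 and from 0.056 to 0.462 for PCSK2. In PAX6-/- BFP, PCSK1 stood at 260, 148 and 224 CPM, above both WT BFP libraries (log2 fold change 1.43, SE 0.53, adjusted p 0.135 over 21 libraries and 0.000135 over 19). PCSK2 was then at 276, 200 and 307 CPM, which overlapped WT BFP (−0.01, SE 0.23, adjusted p 0.988). In ISL1-/- BFP the values of both genes overlapped those of WT BFP, with 80.9 to 114 CPM of PCSK1 and 201 to 233 CPM of PCSK2.

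Per length, PCSK1 transcripts were 0.412 and 0.373 of those of PCSK2 in the WT BFP libraries. The ratio was 2.65, 2.32 and 2.83 in PDX1-/- BFP, 1.24, 0.97 and 0.955 in PAX6-/- BFP, and 0.527, 0.665 and 0.641 in ISL1-/- BFP, so the 4 groups did not overlap. With the ISL1 label it was 0.533 and 0.471 in WT, 0.585, 0.646 and 0.484 in ISL1-/-, 1.03, 0.878 and 0.33 in PAX6-/-, and 1.46 and 0.183 in PDX1-/-. The lowest values, 0.33 and 0.183, belong to the 2 libraries with a high mitochondrial share. The ratio is given as a description, with no test of its own.

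**Figure D2:**
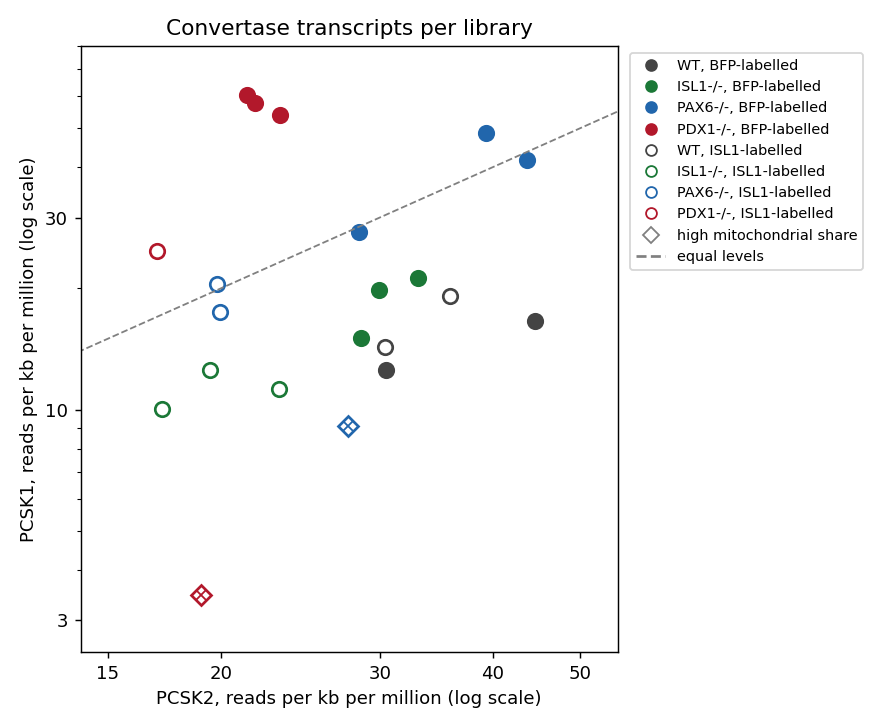
PCSK1 against PCSK2 in RPKM (both axes logarithmic), 1 point per library, coloured by genotype, filled for BFP-labelled and open for ISL1-labelled libraries, with a dashed line at equal levels. The 3 PDX1-/- BFP libraries lie above the line with ratios of 2.32 to 2.83, the WT libraries lie below it, and the 2 crossed diamonds (ratios of 0.33 and 0.183) are PAX6-/- ISL1 replicate 3 and PDX1-/- ISL1 replicate 4.

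CPE (chromosome 4, 165361194 to 165498547, plus strand) was low in the ISL1-/- line with either vector label. It stood at 324, 365 and 401 CPM in ISL1-/- BFP, against 1122 and 1425 CPM in WT BFP, 674 to 1167 CPM in PAX6-/- BFP and 1003 to 1193 CPM in PDX1-/- BFP. The ISL1-/- BFP libraries lay below all libraries of the other 3 BFP groups. The alpha, beta, delta and enterochromaffin marker changes of ISL1-/- BFP given above stand beside this difference, and their part in it was not tested. CPE fell 3.51-fold against WT BFP (log2 fold change −1.81, SE 0.29, adjusted p 0.00122), 2.63-fold against PAX6-/- BFP (−1.39, SE 0.27, adjusted p 0.00687) and 2.95-fold against PDX1-/- BFP (−1.56, SE 0.27, adjusted p 0.00246). All 3 calls were kept in every fit that left out 1 library of the groups compared (5 of 5, 6 of 6 and 6 of 6). These contrasts share the 3 ISL1-/- BFP libraries, so they are not independent. With the ISL1 label, which uses other libraries, CPE stood at 376, 442 and 466 CPM in ISL1-/- and at 1187 and 1091 CPM in WT, and it fell again (log2 fold change −1.41, SE 0.29, adjusted p 0.0108). That call was kept in 2 of 5 such fits and lost without ISL1-/- ISL1 replicate 1 or either WT ISL1 library (highest adjusted p 0.0916). In PAX6-/- BFP and PDX1-/- BFP, CPE overlapped WT BFP (log2 fold changes −0.42, SE 0.29, and −0.25, SE 0.29).

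PAM (chromosome 5, 102753981 to 103029730, plus strand) varied least between group means, from 183 ± 23.8 CPM in PDX1-/- BFP (SD, n = 3) to 337 ± 29.6 CPM in ISL1-/- ISL1 (SD, n = 3). It passed no test with 21 libraries. Its libraries spread widely in 2 groups: PAX6-/- ISL1 had 482, 287 and 125 CPM, and PDX1-/- ISL1 had 453 and 44.8 CPM, with the lowest value of each in the library with a high mitochondrial share. Over 19 libraries PAM was higher in ISL1-/- than in WT among ISL1-labelled libraries (log2 fold change 0.77, edgeR adjusted p 0.0148). It was also higher in PAX6-/- (0.96, adjusted p 0.0089). In PDX1-/- the log2 fold change was 1.22, from the 1 library left (453 CPM). The 2 libraries left out held the lowest PAM values of their groups. All 3 contrasts share the 2 WT ISL1 libraries, so they are not independent.

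Read against all genes, the number of the 10 that passed an adjusted p under 0.05 depended on the libraries in the fit. Against WT BFP, 2 passed in ISL1-/- BFP (5.59% of all genes tested did), 1 in PAX6-/- BFP (5.51%) and 2 in PDX1-/- BFP (9.68%). Over 19 libraries these became 3 (23.5% of all genes), 4 (23.5%) and 7 (27.6%). The 7 in PDX1-/- BFP were CHGA, CHGB, SCG2, VGF and PCSK1, which were higher, and SCG5 and PCSK2, which were lower. Between knockouts with the BFP label, 1 passed for ISL1-/- against PAX6-/- (2.46%), 2 for ISL1-/- against PDX1-/- (5.07%) and 2 for PAX6-/- against PDX1-/- (3.04%). Over 19 libraries these were 3 (8.74%), 8 (21.7%) and 7 (16.3%). The median log2 fold change of the 10 genes was −0.25 in ISL1-/- BFP, −0.35 in PAX6-/- BFP and 0.38 in PDX1-/- BFP over WT BFP, against 0.025, 0.033 and 0.027 over all genes.

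Among the ISL1-labelled libraries, which share none with the BFP comparisons, 2 of the 10 passed for ISL1-/- against WT (3.72%), 1 for PAX6-/- (3.56%) and 0 for PDX1-/- (0.634%). SCG2 fell in ISL1-/- ISL1 (262, 310 and 309 CPM against 750 and 729 CPM, log2 fold change −1.33, SE 0.29, adjusted p 0.0142). It was lost without the same 3 libraries as CPE there (highest adjusted p 0.0991). For PDX1-/- the edgeR count of 0 compares with 1 gene at an unadjusted p under 0.05, PCSK2, with 1 in DESeq2 and with 0 in limma voom. Over 19 libraries the counts were 7 (19.5%), 9 (12.2%) and 3 (6.66%). The 3 in PDX1-/- ISL1 were PAM, which was higher, and SCG5 and PCSK2, which were lower. SCG5 changed sign there, from 0.45 (SE 0.58) to −1.49 (SE 0.35, adjusted p 0.0156), when the 2 libraries were left out.

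**Figure D3:**
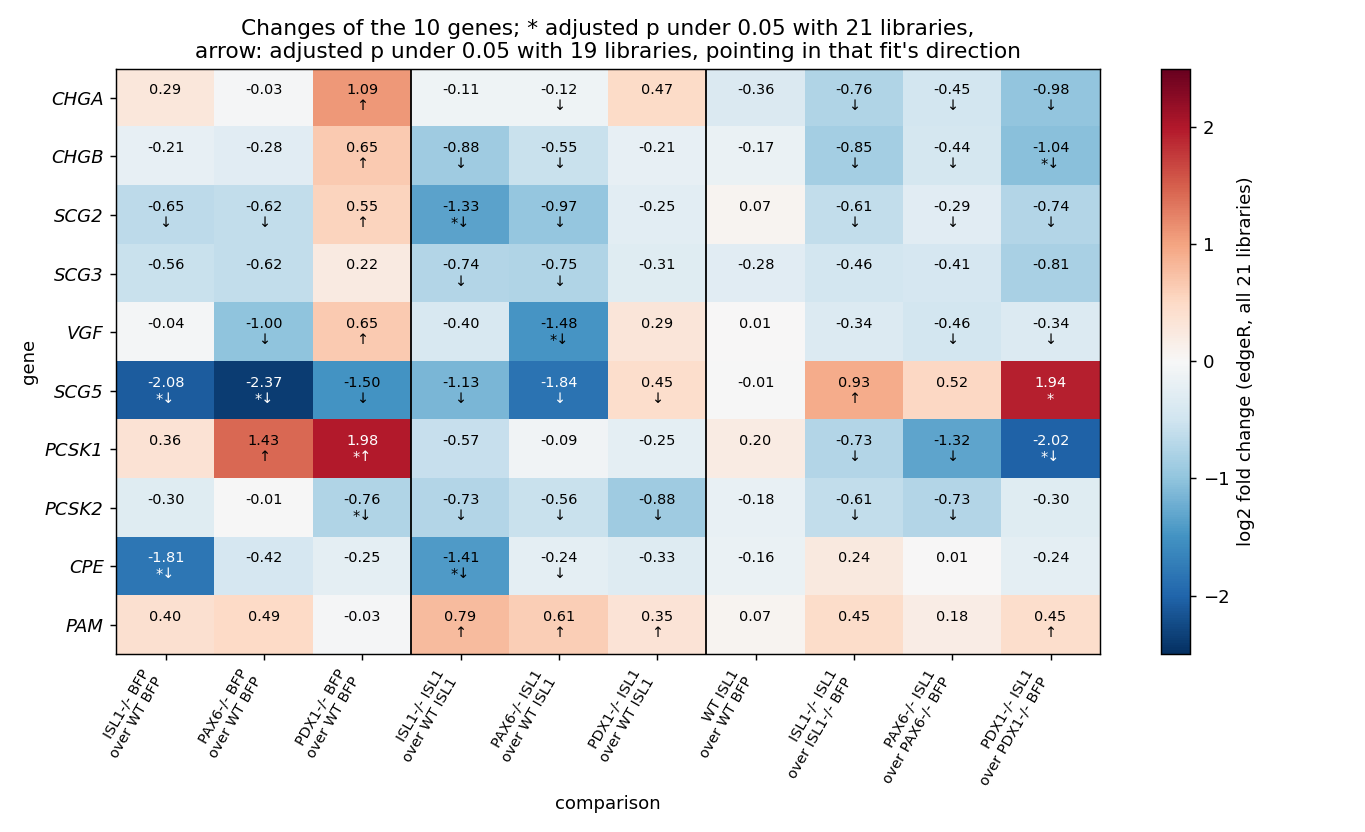
Log2 fold changes of the 10 genes (rows) in 10 comparisons (columns) from the fit with 21 libraries, as colour and number. Asterisks mark an adjusted p under 0.05 with 21 libraries, and arrows mark an adjusted p under 0.05 with 19 libraries and point in the direction of that fit. CPE in ISL1-/- (−1.81 and −1.41) carries both marks with either vector label, and no gene carries one in the WT vector column.

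Between vector labels, no difference passed in WT. CHGA stood at 18683 and 15309 CPM in WT ISL1 against 19725 and 24048 CPM in WT BFP (log2 fold change −0.36, SE 0.38), and the groups did not overlap, as for 1 of the 10 genes and 41.6% of all genes. In WT, 0 of the 10 passed with edgeR (0.027% of all genes), and none had an unadjusted p under 0.05 or passed with DESeq2, with limma voom or over 19 libraries (1.32% of all genes). In all 3 knockouts the means of the 5 granins, of PCSK1 and of PCSK2 were lower with the ISL1 label. In WT the means of CHGA, CHGB, SCG3 and PCSK2 were also lower, and those of SCG2, VGF and PCSK1 were higher. In ISL1-/- CHGA stood at 13398, 14113 and 19888 CPM, below all 3 BFP libraries (log2 fold change −0.76, SE 0.31, adjusted p 0.507), and CHGB at 104, 121 and 143 CPM against 188, 213 and 260 CPM (−0.85, SE 0.27, adjusted p 0.259). In ISL1-/- 7 of the 10 genes did not overlap between the vectors (24.9% of all genes). With edgeR 0 of the 10 passed there (0.382%), 4 had an unadjusted p under 0.05, and 0 passed with DESeq2 and 6 with limma voom. Over 19 libraries 6 passed (4.93%): CHGA, CHGB, SCG2, PCSK1 and PCSK2 were lower and SCG5 was higher.

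In PAX6-/-, PCSK1 stood at 110, 93.8 and 48.9 CPM with the ISL1 label and at 260, 148 and 224 CPM with BFP, and PCSK2 at 139, 140 and 194 CPM against 276, 200 and 307 CPM. These were the 2 genes of 10 that did not overlap between the vectors (16% of all genes did not), and their log2 fold changes were −1.32 (SE 0.46, adjusted p 0.304) and −0.73 (SE 0.21, adjusted p 0.186). With edgeR 0 of the 10 passed (0.355%), 2 had an unadjusted p under 0.05, and 1 passed with DESeq2 and 7 with limma voom. Same-numbered libraries of these 2 groups deviated together, and with the replicate number as a block PCSK1 (adjusted p 0.0237) and PCSK2 (adjusted p 0.0309) passed. A block by the numbers in the titles, which differ for 3 libraries of other groups, gave 0.314 and 0.142. Both blocks number the PAX6-/- libraries alike, so these passes cannot be credited to the pairing alone. In the block by library name, PDX1-/- ISL1 replicate 4 is the only library with its number and so has a term of its own. CHGA stood at 10451, 10301 and 26296 CPM with the ISL1 label. Only the last of these, from the library with a high mitochondrial share, overlapped the BFP range. Without it and PDX1-/- ISL1 replicate 4, the log2 fold change of CHGA moved from −0.45 (SE 0.31) to −1.06 (SE 0.21, adjusted p 0.0085), and 6 genes passed (4.97%), all lower: CHGA, CHGB, SCG2, VGF, PCSK1 and PCSK2.

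In PDX1-/-, 3 of the 10 passed (12.5% of all genes). CHGB stood at 209 and 181 CPM with the ISL1 label, below its 3 BFP libraries, and fell (log2 fold change −1.04, SE 0.30, adjusted p 0.0342). PCSK1 stood at 133 and 18.6 CPM and fell (−2.02, SE 0.54, adjusted p 0.0238). The rise of SCG5 (1.94, SE 0.53, adjusted p 0.0258) came from 2.13 and 14.4 CPM against 1.77 to 2.52 CPM with BFP, and without the library at 14.4 CPM its log2 fold change was 0.03 (SE 0.32). Each of these 3 calls was kept in 1 of 5 fits without 1 library of the groups compared, the one that left out PDX1-/- ISL1 replicate 2 and so compared replicate 4 alone, with adjusted p up to 0.25, 0.148 and 1 for CHGB, PCSK1 and SCG5 in the others. CHGA stood at 24186 and 22940 CPM, below all 3 BFP libraries (−0.98, SE 0.36, adjusted p 0.077), and 7 of the 10 genes did not overlap (33.6% of all genes). Over 19 libraries 6 passed (8.92%): CHGA, CHGB, SCG2, VGF and PCSK1 were lower, and PAM was higher (1.34, SE 0.24, adjusted p 0.00189).

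Marker lists differed in both directions beside these vector differences. Of all genes tested, 0.382% passed between the vectors in ISL1-/- and 12.5% in PDX1-/-. The enterochromaffin sum was 1164 to 1492 CPM in ISL1-/- ISL1 against 2723 to 3541 CPM with BFP, 691 to 1312 against 1576 to 2462 CPM in PAX6-/-, 1471 and 1476 against 4295 to 4964 CPM in PDX1-/-, and 694 and 761 against 1014 and 1176 CPM in WT. The general endocrine sum was 2022 to 2476 against 3137 to 3840 CPM in ISL1-/-, 2063 to 3192 against 2722 to 4041 CPM in PAX6-/-, 2217 and 2785 against 5243 to 5652 CPM in PDX1-/-, and 2155 and 2581 against 2327 and 3232 CPM in WT. Other lists were higher with the ISL1 label. Alpha markers summed to 2893 to 6221 CPM in ISL1-/- ISL1 against 725 to 768 CPM with BFP. Of these 8 markers only GCG rose (2197 to 5362 CPM against 74.2 to 90.9 CPM), and it made up most of the ISL1-labelled sum. In PDX1-/- all 6 liver markers rose (5553 and 29596 CPM against 3482 to 3546 CPM), as did 3 of 7 delta, 3 of 8 beta, 2 of 8 alpha, 3 of 5 duct, 2 of 4 acinar, 2 of 5 intestine and 2 of 8 progenitor markers tested, while 1 beta and 1 alpha marker fell. The higher liver sum belongs to replicate 4. Beta markers summed to 641 CPM in replicate 2 and 26197.5 CPM in replicate 4, against 784 to 867 CPM with BFP. Alpha markers summed to 14564 and 120525 CPM, against 16905 to 21718 CPM. In both lists replicate 2 lay below all BFP libraries, and only replicate 4 was higher. The delta, duct, acinar, intestine and progenitor sums were above all BFP libraries in both replicates. The part of these shifts in the values of the 10 genes was not tested.

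The vector effect in each knockout minus that in WT was also tested. With edgeR 0 of the 10 passed for ISL1-/- (0.00386% of all genes), for PAX6-/- (0%) and for PDX1-/- (1.19%). There were 0, 1 and 2 genes at an unadjusted p under 0.05, and none passed with DESeq2 or limma voom. The difference in PCSK1 was −0.93 (SE 0.71) for ISL1-/-, −1.52 (SE 0.72) for PAX6-/- and −2.22 (SE 0.76) for PDX1-/-, with adjusted p of 1, 0.894 and 0.166. Over 19 libraries the counts were 0 (0.308%), 0 (0.147%) and 2 (2.36%), namely VGF (−1.23, SE 0.31, adjusted p 0.049) and PCSK1 (−1.38, SE 0.35, adjusted p 0.0477) for PDX1-/-. That the vector effect differs from WT was therefore not shown with all libraries.

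**Figure D4:**
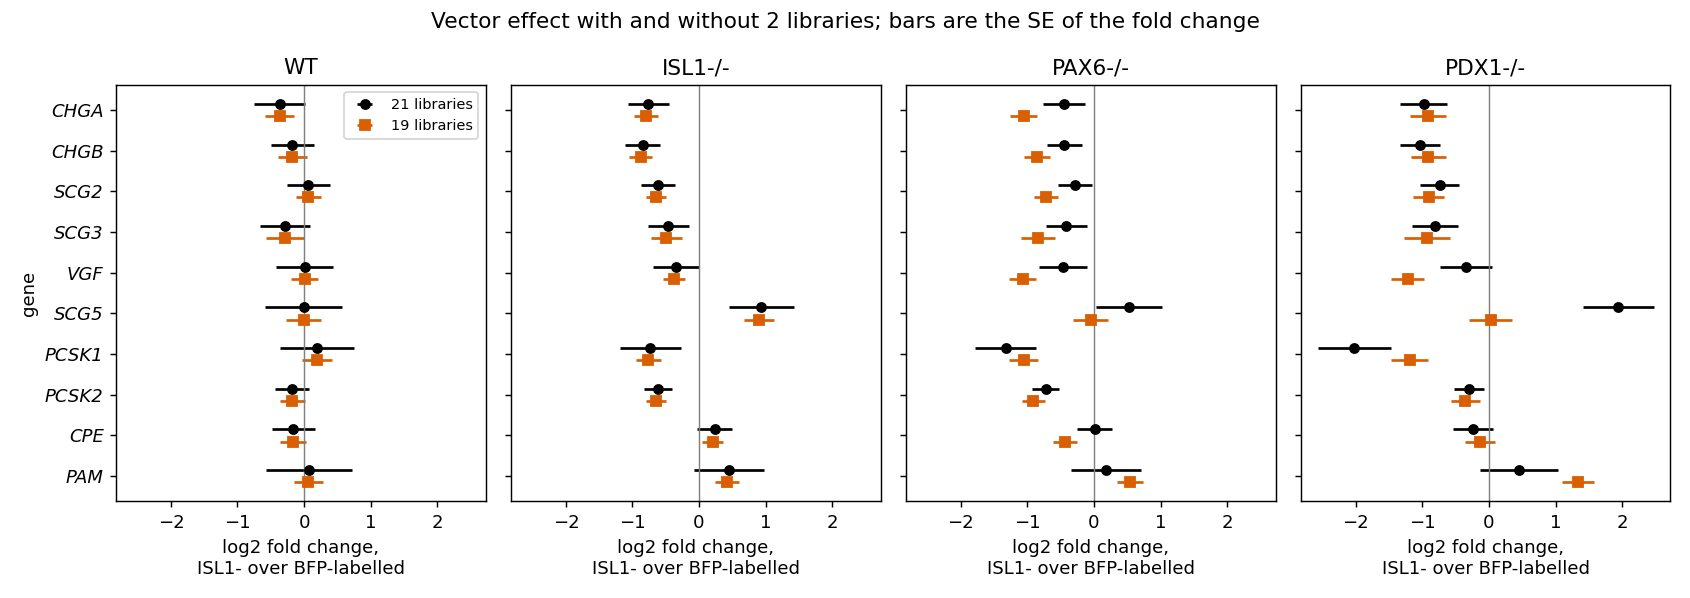
Log2 fold change of ISL1-labelled over BFP-labelled libraries for the 10 genes in each genotype, with 21 libraries (circles) and with 19 (squares). Bars are standard errors. In PDX1-/- SCG5 moves from 1.94 to 0.03 and PAM from 0.45 to 1.34 between the fits, and in WT the values stay between −0.37 and 0.20.

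Other genes of the pathway were read from lists made by function. The share of all genes that passed was 5.59% in ISL1-/-, 5.51% in PAX6-/- and 9.68% in PDX1-/- BFP over WT BFP, and the median over all genes was 0.025, 0.033 and 0.027. Of 15 other convertases and carboxypeptidases tested, 3 fell and none rose in PDX1-/- BFP over WT BFP, among them PCSK5 (log2 fold change −1.57, SE 0.47, adjusted p 0.0442) and PCSK6 (−1.33, SE 0.30, adjusted p 0.00828). None of the 15 passed in ISL1-/- BFP or PAX6-/- BFP. The median of the list was 0.21, −0.01 and 0.07 in PDX1-/-, ISL1-/- and PAX6-/- BFP. Of 12 genes that modify peptides, 3 fell in ISL1-/- BFP, 1 fell and 1 rose in PAX6-/- BFP, and 2 fell in PDX1-/- BFP. DPP4, a surface protease that trims incretins, fell in all 3, from 1787 and 1744 CPM in WT BFP to 272 to 474 CPM in ISL1-/-, 293 to 456 CPM in PAX6-/- and 243 to 313 CPM in PDX1-/-, with log2 fold changes of −2.18, −2.27 and −2.72. These contrasts share the WT BFP libraries. QPCT, which turns a terminal glutamine into pyroglutamate, fell in ISL1-/- BFP (62.6, 67.4 and 84.5 CPM against 271 and 346 CPM, log2 fold change −2.11, SE 0.51, adjusted p 0.0196), as CPE did.

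Of 33 genes of granule biogenesis and membrane, 7 rose and 1 fell in PDX1-/- BFP, with a list median of 0.73 (9.68% and 0.027 over all genes). SLC18A1, the vesicular monoamine transporter that also stands on the enterochromaffin list, rose from 37.6 and 64.1 CPM in WT BFP to 397, 414 and 416 CPM (log2 fold change 3.01, SE 0.52, adjusted p 0.00179). DNAJC12 (2.63), BAIAP3 (2.62) and the vesicle glycoprotein SV2A (1.71) also rose, and the small GTPase RAB37 fell (−1.33). In ISL1-/- BFP 1 rose (SLC18A1, 1.86) and 4 fell: GNAS (−1.72), CADPS2 (−1.54), the proton pump accessory subunit ATP6AP2 (−0.96) and ARFGEF3 (−0.86). In PAX6-/- BFP SLC18A1 rose (1.89) and GNAS fell (−1.86). With the ISL1 label in PDX1-/-, 8 of the 33 fell and 1 rose, where 12.5% of all genes passed. The list median was −0.91 against 0.13 over all genes. SLC18A1 (−2.13), SV2A (−1.91), DNAJC12 (−1.74) and VPS41 (−1.64) were among the lower genes, and RAB37 (1.83) was higher. The 2 libraries of PDX1-/- ISL1 lay far apart on most of these. SLC18A1 stood at 26.9 and 160 CPM (397 to 416 CPM with BFP) and SV2A at 8.33 and 45.8 CPM (97.5 to 107 CPM). VPS41 stood at 49.1 and 174 CPM (343 to 359 CPM) and RAB37 at 25.1 and 85.7 CPM (13.9 to 17.4 CPM). The part of replicate 4, which stood apart, in these changes was not tested.

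Of the 28 prohormone genes listed as substrates of these enzymes, 7 fell in ISL1-/- BFP, 11 fell and 2 rose in PAX6-/- BFP, and 7 fell in PDX1-/- BFP over WT BFP, and the list medians were −0.85, −1.03 and −0.86 (shares and medians over all genes as above). In ISL1-/- BFP glucagon (GCG, −9.03), somatostatin (SST, −7.82) and peptide YY (PYY, −6.78) fell. In PAX6-/- BFP ghrelin (GHRL, 5.36) rose and GCG fell (−10.06). In PDX1-/- BFP insulin (INS, −5.46) and gastric inhibitory polypeptide (GIP, −6.29) fell. With the ISL1 label none of the 28 fell in any genotype: in ISL1-/- 2 rose, GCG (5.35) and neurotensin (NTS, 3.42), where 0.382% of all genes passed, and in PDX1-/- 14 rose, among them gastrin (GAST, 6.54), SST (3.53), CRH (2.78) and POMC (2.29), where 12.5% passed. In PDX1-/- ISL1, GAST stood at 13.3 CPM in replicate 2 and 1286 CPM in replicate 4, against 5.51 to 8.43 CPM with BFP. CRH stood at 8.73 and 68.2 CPM against 3.37 to 7.68 CPM. SST (115 and 343 CPM against 7.02 to 26.3 CPM) and POMC (28.9 and 39.6 CPM against 5.77 to 7.71 CPM) lay well above BFP in both. The part of replicate 4, which stood apart, in these 14 changes was not tested. None of the 28 passed in WT or PAX6-/-. Of 21 endocrine transcription factors, 2 rose and 2 fell in ISL1-/- BFP, 4 rose in PAX6-/- BFP, and 7 rose and 3 fell in PDX1-/- BFP over WT BFP (shares over all genes as above). ISL1 itself is among those that fell in ISL1-/- BFP and in PDX1-/- BFP.

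Across the 21 libraries, Pearson's r of log2 CPM was 0.94 for CHGB with SCG3, 0.91 for CHGB with CHGA, 0.91 for CHGB with SCG2 and 0.77 for CHGA with SCG2. VGF had 0.67 with CHGB and 0.73 with CHGA, and the enzyme gene CPE had 0.66 with SCG2, while PCSK2 reached at most 0.44 with any other member and SCG5 was at −0.61 with PAM. Among 10885 genes with a mean of at least 10 CPM, QPCT had the pattern most like that of CPE (0.94). ELOVL4 was nearest to CHGB (0.95), MFSD1 to SCG2 (0.96), ATP6AP1 to SCG3 (0.95), EGFL7 to SCG5 (0.96) and SCGN to VGF (0.96). FUT1 was nearest to PCSK1 (0.98), PTGDR2 to PCSK2 (0.84) and RBM5 to PAM (0.96). These values describe libraries that share groups and include the 2 that stand apart, and they carry no test.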

How the data were processed

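The table holds raw read counts per gene for 21 libraries made with SMART-Seq v4. The authors aligned reads with STAR 2.7.11b and counted them with featureCounts 2.1.1 on GRCh38, per the submitters' processing notes. The annotation release, the strand setting and the treatment of reads shared between genes are not given in the sources used here. One broken gene entry was left out, and every remaining entry had a symbol.

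Groups were taken from the labels. Counts were tested with edgeR 4.0.16 (R 4.3.3): TMM scaling, a filter at 10 counts (total 15), which left 25884 genes, a quasi-likelihood fit of all 8 groups, 16 comparisons, and Benjamini-Hochberg adjustment over all genes tested, with a threshold of 0.05. The edgeR fit was tested on simulated data with known changes in PAX6-/- BFP over WT BFP, and the alternatives were not. CPM use TMM library sizes, RPKM divide them by exon length, and correlations use log2 CPM with a prior count of 2. Alternatives used DESeq2 1.42.0, limma 3.58.1, other scaling, no filter, only the groups compared, replicate blocks and each library left out. The fit over 19 libraries was chosen after the data had been seen. Replicate numbers were those of the library names. Same-numbered PAX6-/- libraries of the 2 vectors deviated together (r = 0.155, 0.391 and 0.333). The main fit holds no pairing, and the number enters only as a replicate block over all groups in an alternative fit. The edgeR p-values given for the PAX6-/- vector effect are therefore unpaired unless a block is named. Sequences are RefSeq's. The genes, the pathway lists and the marker lists were chosen with earlier results of these data known. Named list genes are up to 4 per direction with the largest passing changes, the higher group at 10 CPM or more, and no overlap of libraries. Similar genes are those with the highest r among genes with a mean of at least 10 CPM.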

Additional observations from a re-analysis of the deposited data

How the results depend on the processing

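The number of the 10 genes that passed changed with the setting, and no passing change reversed its direction in any alternative run. When the 16 passing changes were tested again under the other tools, scalings, filters, fits, blocks and the set of 19 libraries, 116 of these tests passed and 12 did not. When each library was left out in turn, 262 passed again and 74 did not. Most of these fits left out a library of a group outside the comparison. Fits that left out a library of the groups compared are given above for each call. Only the 3 CPE calls with the BFP label, which share the ISL1-/- BFP libraries, were kept in all of those. Counts are given in the order ISL1-/-, PAX6-/- and PDX1-/- over WT with BFP, then ISL1-/- over PAX6-/-, ISL1-/- over PDX1-/- and PAX6-/- over PDX1-/- with BFP. With limma voom and sample weights they were 4, 4, 7, 3, 8 and 6. With only the compared groups in the fit they were 3, 3, 7, 3, 9 and 8, without the 2 libraries with a high mitochondrial share 3, 4, 7, 3, 8 and 7, and with DESeq2 2, 1, 4, 1, 4 and 5. For the vector effect in ISL1-/-, PAX6-/- and PDX1-/- they were 6, 7 and 0 with limma voom, 5, 0 and 0 with only the compared groups, 6, 6 and 6 without the 2 libraries, and 0, 1 and 4 with DESeq2. For ISL1-/-, PAX6-/- and PDX1-/- over WT with the ISL1 label they were 7, 9 and 0 with limma voom, 8, 0 and 0 with only the compared groups, 7, 9 and 3 without the 2 libraries, and 3, 3 and 1 with DESeq2. Without the filter, 2 passed for PAX6-/- over WT with the ISL1 label. For the PDX1-/- vector effect minus that of WT, 2 passed without the 2 libraries. Leaving out 1 library gave ranges of 1 to 2, 0 to 3, 0 to 4, 1 to 2, 1 to 5 and 0 to 5 for the BFP comparisons, 0 to 0, 0 to 1 and 0 to 5 for the vector effect in the knockouts, 0 to 4 for each knockout over WT with the ISL1 label, and 0 to 3 for the PDX1-/- vector effect minus that of WT. It gave 0 throughout for the vector effect in WT and for the other differences of vector effects. The cause of these shifts was not tested. Fits without 1 library of a pair assume that the lone library varies like the other groups.

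With the library-name number as a replicate block the counts were 2, 3, 5, 3, 6 and 6 for the BFP comparisons, 0, 2 and 0 for the vector effect in the 3 knockouts, and 6, 5 and 0 over WT with the ISL1 label. This block spans all groups, and the main tests pair none. Same-numbered libraries of the 2 vectors had r of 0.155, 0.391 and 0.333 in PAX6-/-. In ISL1-/- they had r of 0.183, 0.099 and 0.293, a range that overlaps that of PAX6-/-. In PAX6-/- PCSK1 and PCSK2 passed with the block (adjusted p 0.0237 and 0.0309), and the block changed no other call in that comparison. Neither passed with the title number as a block, which numbers the PAX6-/- libraries alike, so these passes cannot be credited to the pairing alone. With the title number as a block, 5 passed for PAX6-/- over PDX1-/- with BFP, and 4 and 2 for ISL1-/- and PAX6-/- over WT with the ISL1 label.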
